A study of Mus musculus with 45 samples.

Results

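Lgr5-positive and Lgr5-negative epithelial cells were compared in the posterior part of the small intestine of mouse embryos at E15.5, named for the day of gestation, within the cells that carried no lineage label. The members are the 6 RNA-seq libraries that the titles place in these groups, of 45 libraries in the series. The study asked which embryonic epithelial cells give rise to the Lgr5-positive stem cells of the adult gut, and marked cells early in gut development through Axin2 or Id2 with the red protein tdTomato. Cells were sorted from wild type guts of a mixed C57BL/6 and CD1 background, 500 per library, and each E15.5 replicate came from a single embryo.

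The first group, called Lgr5-positive here, holds 3 libraries of Lgr5+ cells without tdTomato. The second, called Lgr5-negative here, holds 3 libraries of EpCAM+ cells that carried neither Lgr5 signal nor tdTomato. All 6 come from the Axin2 line, in which labelling was started at E9.5, so in both groups the cells are those that escaped the label. The labels give neither the reporter used for the Lgr5 gate nor the driver behind the Axin2 label. They do not say whether libraries with the same number came from one embryo.

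Lgr5 is a receptor for R-spondins, secreted proteins that raise the response of a cell to Wnt ligands. R-spondin binding keeps the ubiquitin ligases Rnf43 and Znrf3 from removing Frizzled, the Wnt receptor, so that beta-catenin and TCF/LEF factors can switch on Wnt targets such as Axin2 and Lgr5 itself. In the adult gut Lgr5 marks the dividing stem cells at the crypt base. In the fetal gut, before crypts exist, villi emerge in a wave and Lgr5 becomes restricted to the epithelium between them, while the cells on villi start to express genes of absorption. Notch signalling at the same stage separates absorptive cells from secretory ones, in which the factor Atoh1 is expressed.

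The 6 libraries held 16521311 to 18631640 reads in genes, with 14685 to 16515 genes that had at least 1 read. Values below are CPM, read counts scaled to a common number of reads in genes, after TMM scaling, a correction for differences in library composition. Values after ± are standard errors worked back from the test statistic, with the spread of each gene estimated over all libraries in the fit. They are thus not the spread among the 6 libraries alone. CPM is not corrected for gene length, so levels are compared between libraries and not between genes. Since RNA came from pools of sorted cells, fewer cells of a type and less RNA per cell cannot be told apart.

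Libraries 1 and 3 of the Lgr5-positive group stood apart. Hbb-bh1, a beta-type globin of embryonic red cells, had 815, 0.812 and 696 CPM in Lgr5-positive libraries 1 to 3 and 0.184 to 2.18 CPM in the Lgr5-negative libraries. Hbb-y, another embryonic beta-type globin, had 553, 0.710 and 474 CPM in the Lgr5-positive libraries, and Hba-x, the embryonic alpha-type globin, had 424, 0.660 and 386 CPM. Libraries 1 and 3 were thus far above library 2, which lay within the range of the Lgr5-negative libraries for Hbb-bh1 and Hba-x. The adult globins Hba-a1 and Hbb-b1 had no read in any of the 6. Adult globin genes have near-identical copies, and reads that aligned to more than 1 place were not counted in genes. These zeros thus need not mean absence.

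The same pair of libraries shared a wider set of genes. With limits set after seeing the data, 31 genes had at least 10 CPM in Lgr5-positive libraries 1 and 3 and under 2 CPM in each of the other 4 libraries. No gene met the same limits for any other pair within a group. Among the 31 were Cdx4 (13.4 and 13.9 CPM), a caudal homeobox factor of the early embryo, and Tcf15 (14.5 and 14.9 CPM), a factor of the paraxial mesoderm. Hoxb1, an early anterior Hox gene, had 13.3 and 10.8 CPM, and Cyp26a1, which breaks down retinoic acid in the tail region of the embryo, had 11.2 and 10.9 CPM. Their summed level was 1813 CPM in library 1 and 1736 CPM in library 3, against 14.0 CPM in library 2 and 8.54 to 14.7 CPM in the Lgr5-negative libraries. Values with Lgr5-positive library 2 alone are therefore given beside the results below.

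The other posterior libraries, which carry the label, held the same globins at lower levels. Hbb-bh1 reached 60.0 CPM in 1 labelled Lgr5-positive library and 49.1 CPM in 1 labelled library of unstated Lgr5 state. The ratio of Hbb-y to Hbb-bh1 was 0.679 and 0.680 in Lgr5-positive unlabelled libraries 1 and 3, and 0.708 and 0.593 in those 2. It was 0.627 to 0.939 in the other labelled posterior libraries and 0.529 to 0.804 in the unlabelled anterior ones, where these globins were low. A ratio near 0.68 was thus not particular to libraries 1 and 3. The part of these reads in the results was not tested beyond the values given here.

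**Figure D1:**
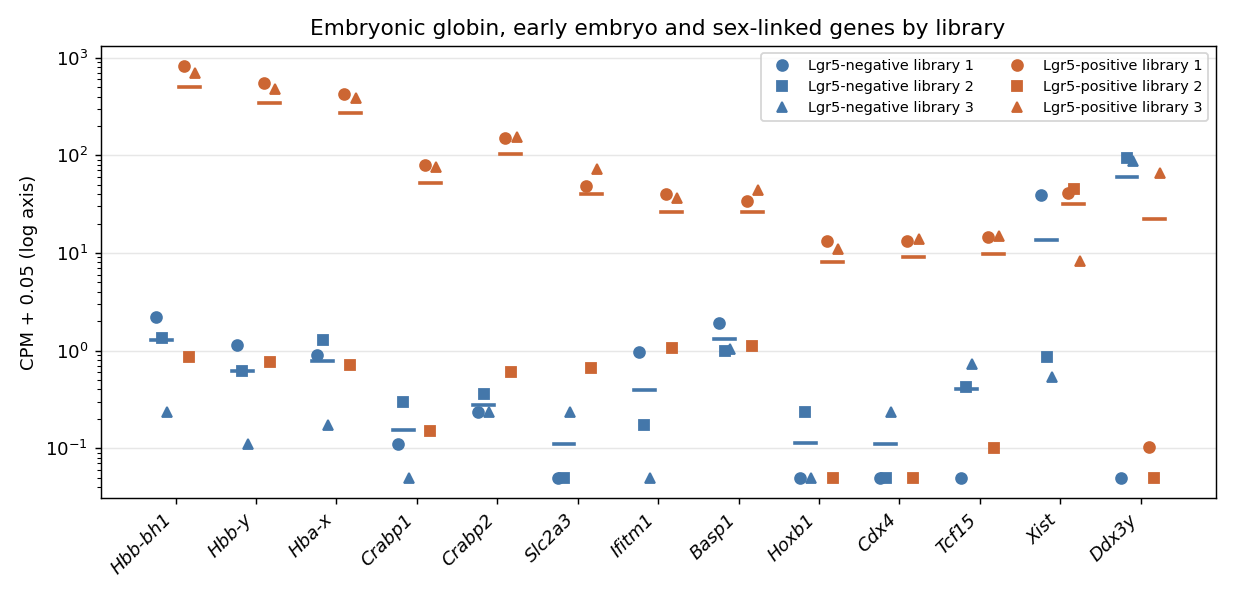
CPM plus 0.05 on a log axis of 13 genes in each of the 6 libraries (circles, squares and triangles for libraries 1, 2 and 3), with bars at the group means. For Hbb-bh1, Lgr5-positive libraries 1 and 3 lie at 815 and 696 CPM and library 2 at 0.812 CPM, among the Lgr5-negative libraries.

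Sex-linked genes differed within the groups. Xist, the RNA of the inactive X chromosome, had 39.5, 0.809 and 0.491 CPM in Lgr5-negative libraries 1 to 3 and 41.5, 45.6 and 8.17 CPM in Lgr5-positive ones. Ddx3y, a Y-linked RNA helicase, had 0, 93.0 and 86.9 CPM in the Lgr5-negative libraries and 0.0530, 0 and 66.1 CPM in the Lgr5-positive ones. Libraries numbered 2 thus differed in sex, and Lgr5-positive library 3 held both Xist and Y-linked reads. In the other E15.5 groups libraries 1 and 2 had Xist and library 3 had Y-linked reads, so Lgr5-negative library 2 was the exception. Whether a number marks an embryo, and whether library 3 holds RNA of more than 1 embryo, was not tested. The immediate early and stress list split the same way, with summed levels of 4704, 9519 and 9803 CPM in the Lgr5-negative and 4939, 4933 and 10533 CPM in the Lgr5-positive libraries. A list of YAP targets, genes induced by a growth-control factor that senses tension, summed to 962, 3146 and 3149 CPM and to 1053, 950 and 2856 CPM. The libraries with Y-linked reads were the high ones for both lists in each group, so neither list separated the gate. No member of either list passed the test of the gate in the fit of all 45 libraries: the smallest p-values were those of the stress factor Ddit3 (log2 fold change -1.39 ± 0.47, adjusted p by edgeR 0.175) and Hspa8, a chaperone, and of Areg, an epidermal growth factor family ligand (-2.47 ± 0.99, adjusted p by edgeR 0.237) and Tead2, the partner of YAP. In a fit of the E15.5 libraries alone Tead2 was called higher (adjusted p by edgeR 0.0352), and Ereg, an epidermal growth factor family ligand, and Il33, a cytokine, were called lower (adjusted p by edgeR 0.0390 and 0.0370). With Y-linked reads as a term in the fit, chosen after seeing the data, 57 of the 61 genes reported below were called again.

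The sort was checked with the genes it was based on. Lgr5 had 16.9, 7.97 and 5.65 CPM in Lgr5-negative libraries 1 to 3 and 41.1, 80.8 and 45.4 CPM in the Lgr5-positive ones. All 3 Lgr5-positive libraries were above all 3 Lgr5-negative ones. The difference missed the threshold (log2 fold change 2.45 ± 0.78 SE, edgeR's quasi-likelihood test, adjusted p = 0.151), and it passed with the E15.5 libraries alone (adjusted p by edgeR 0.0153). With Lgr5-positive library 2 alone the log2 fold change was 2.99. Axin2, which degrades beta-catenin and is itself a Wnt target, had 3.70, 1.49 and 3.01 CPM against 7.05, 9.29 and 5.34 CPM, without overlap (1.40 ± 0.61, adjusted p by edgeR 0.272). Id2, an inhibitor of helix-loop-helix factors and the other lineage gene of the study, had 549, 708 and 686 CPM against 575, 632 and 419 CPM, so the groups overlapped (-0.26 ± 0.21, adjusted p by edgeR 0.589). Epcam, the surface protein of the sort, had 3426, 3037 and 2953 CPM against 2456, 2702 and 1641 CPM, lower in each Lgr5-positive library (-0.47 ± 0.18, adjusted p by edgeR 0.229).

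Markers of other cell types differed between libraries. The 6 erythroid markers summed to 0.860 to 4.36 CPM in the Lgr5-negative libraries and to 1384, 1.88 and 1187 CPM in Lgr5-positive libraries 1 to 3. The 6 enteric neuron and glia markers summed to 9.09 to 14.1 CPM and to 22.4, 12.7 and 53.0 CPM. Library 2 lay within the Lgr5-negative range for both. Much of the neuron and glia sum was Ret, which is also on the receptor tyrosine kinase list. Ret had 3.39, 2.80 and 4.36 CPM in the Lgr5-negative and 11.1, 3.96 and 34.7 CPM in the Lgr5-positive libraries. The 9 epithelial markers summed to 9869 to 11240 CPM in the Lgr5-negative libraries and to 8437, 8797 and 7506 CPM in Lgr5-positive libraries 1 to 3. The 9 mesenchyme and muscle markers summed to 6.14 to 14.0 CPM and to 77.6, 21.9 and 80.5 CPM. The 5 endothelial markers summed to 0.364 to 1.49 CPM and to 6.41, 0.710 and 7.54 CPM, and so were again high in libraries 1 and 3. Immune markers were highest in Lgr5-positive library 2, where 6 of them summed to 13.4965 CPM against 0.685 to 2.12 CPM in the Lgr5-negative and 2.01 and 1.204 CPM in the other 2 libraries. Mesothelial markers, 40.2 to 56.0 CPM in the Lgr5-negative libraries, were at 21.6, 15.9 and 22.7 CPM. The 7 liver and pancreas markers, of which Ptf1a had no read, summed to 58.2 to 121 CPM and to 128, 55.3 and 149 CPM.

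The gate separated few genes when the spread was shared over all 45 libraries. Of 15513 genes tested, 61 passed an adjusted p of 0.05 (0.393% of all genes), 51 higher (0.329%) and 10 lower (0.0645%) in Lgr5-positive cells. The median log2 fold change over all genes tested was 0.12. Of the 51 higher genes, 39 did not overlap between groups, against 16.6% of all genes tested on that side, and all 10 lower genes did not overlap, against 14.1% of all genes. The p-values chose these genes, so nothing is read from those shares. In a fit of the 21 E15.5 libraries alone, called the E15.5 fit below, 894 genes were higher (6.3% of 14187) and 1127 lower (7.94%), and all 61 genes were among them.

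The count rested on single libraries. Leaving out Lgr5-negative libraries 1, 2 or 3 in turn gave 28, 7 and 10 genes, and leaving out Lgr5-positive libraries 1, 2 or 3 gave 31, 49 and 8. With Lgr5-positive library 2 alone, where the lone library is assumed to vary like the other groups, 3 genes passed (0.0179% of 16787), namely Rtn1, Slfn9 and Stxbp6. In that fit 44 of the 51 higher genes kept a positive fold change, against 48% of all genes tested, and 35 of them were above 2-fold. All 10 lower genes kept a negative one, against 46.5% of all genes. The Lgr5-negative libraries are the same in both fits, so this is no independent support.

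Genes that were high in all 3 Lgr5-positive libraries included several membrane receptors. Kit, the receptor of stem cell factor, had 12.5, 5.98 and 8.17 CPM in Lgr5-negative libraries 1 to 3 and 53.6, 64.3 and 101 CPM in Lgr5-positive ones. Each Lgr5-positive library exceeded the highest Lgr5-negative one at least 4-fold. Kit rose by 3.04 ± 0.48 on the log2 scale (adjusted p by edgeR 0.00106) and by 2.86 with library 2 alone (adjusted p by edgeR 0.0770). It passed in each of the 6 fits that left out 1 library, with adjusted p by edgeR up to 0.0366. Kit was at 45.4 to 93.5 CPM in the labelled Lgr5-positive libraries of the posterior part, and the Lgr5-negative cells were lowest of the 8 groups of the Axin2 line compared.

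Fgfr2, a receptor of fibroblast growth factors that mesenchyme supplies, had 43.6, 39.2 and 44.8 CPM against 107, 162 and 157 CPM. The groups were far apart beside the spread within them, and Fgfr2 rose (1.74 ± 0.35, adjusted p by edgeR 0.0138). Only 2 of the 6 fits that left out 1 library called Fgfr2. With library 2 alone the log2 fold change was 1.93. Sorcs2, a sorting receptor of the Vps10 family, rose from 2.24, 4.11 and 1.23 CPM to 11.6, 21.01 and 18.4 CPM (2.75 ± 0.65, adjusted p by edgeR 0.0478). No fit with 1 library left out called Sorcs2, and 3 of the 6 called Fzd2. Fzd2, a Frizzled receptor for Wnt ligands, rose from 3.76, 0.685 and 1.90 CPM to 13.51, 8.52 and 12.4 CPM (2.43 ± 0.48, adjusted p by edgeR 0.00955). Fzd2 reached 2.01 with library 2 alone, where it did not pass (adjusted p by edgeR 0.843).

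Rtn1, a reticulon of the endoplasmic reticulum known from neurons and neuroendocrine cells, had no read in any Lgr5-negative library. It had 4.98, 4.87 and 4.19 CPM in the Lgr5-positive libraries, from 270 reads in all. Against a floor of 3 counts per library, which is 0.184 CPM, Rtn1 was at least 25.4-fold higher. It was called in all 6 fits that left out 1 library (adjusted p by edgeR 0.000121 in the full fit) and in the fit with library 2 alone. Rtn1 lies under the mean level of 5 CPM set for naming genes and was chosen after its values were seen.

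Among cytoplasmic and secreted products, the 3 Lgr5-positive libraries were again on the same side. Rgs12, a GTPase-activating regulator of G protein signalling, had 0.909, 0.747 and 2.15 CPM against 8.32, 8.47 and 8.43 CPM (2.72 ± 0.53, adjusted p by edgeR 0.00955). Smoc2, a secreted matrix protein and marker of adult Lgr5 stem cells, had 34.3, 17.2 and 20.7 CPM against 123, 214 and 71.1 CPM. Smoc2 rose by 2.50 ± 0.59 (adjusted p by edgeR 0.0478) and by 3.15 with library 2 alone, but no fit with 1 library left out called it. Ifitm3, an interferon-inducible membrane protein that also marks early germ cells, had 0.667, 0.187 and 0.184 CPM against 11.5, 4.26 and 9.43 CPM (4.57 ± 0.74, adjusted p by edgeR 0.00106). Galnt12, an enzyme that starts O-linked glycans on mucins, had 82.3, 45.01 and 42.0 CPM against 144, 135.5 and 142 CPM (1.32 ± 0.31, adjusted p by edgeR 0.0385).

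Igfbp2, a secreted binding protein of insulin-like growth factors, had 15.2, 7.03 and 7.62 CPM against 82.1, 30.9 and 62.2 CPM (2.55 ± 0.49, adjusted p by edgeR 0.00955). Arg1, the arginase that makes ornithine, had 4.91, 1.74 and 1.47 CPM against 25.7, 10.05 and 34.3 CPM (3.10 ± 0.61, adjusted p by edgeR 0.00955). Emb, an immunoglobulin-family cell surface protein, had 2.36, 4.48 and 6.82 CPM against 35.7, 13.4 and 47.0 CPM (2.81 ± 0.60, adjusted p by edgeR 0.0209). Sbk1, a serine/threonine kinase, had 5.46, 2.303 and 8.23 CPM against 14.5, 28.0 and 66.6 CPM (2.77 ± 0.66, adjusted p by edgeR 0.0478). Igfbp2, Arg1 and Emb were lowest in library 2 among the Lgr5-positive libraries, and Sbk1 in library 1. For these genes each Lgr5-positive library was above every Lgr5-negative one. When 1 library was left out, 1 of the 6 fits called Emb, and likewise 1 called Sbk1 and 1 Galnt12. Arg1 and Rgs12 were called in 3 each and Ifitm3 in all 6. With library 2 alone the log2 fold changes were 1.63 for Igfbp2, 1.89 for Arg1, 1.56 for Emb, 2.39 for Sbk1, 2.73 for Rgs12, 3.60 for Ifitm3, 1.26 for Galnt12 and 3.05 for Sorcs2, and none of them passed.

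**Figure D2:**
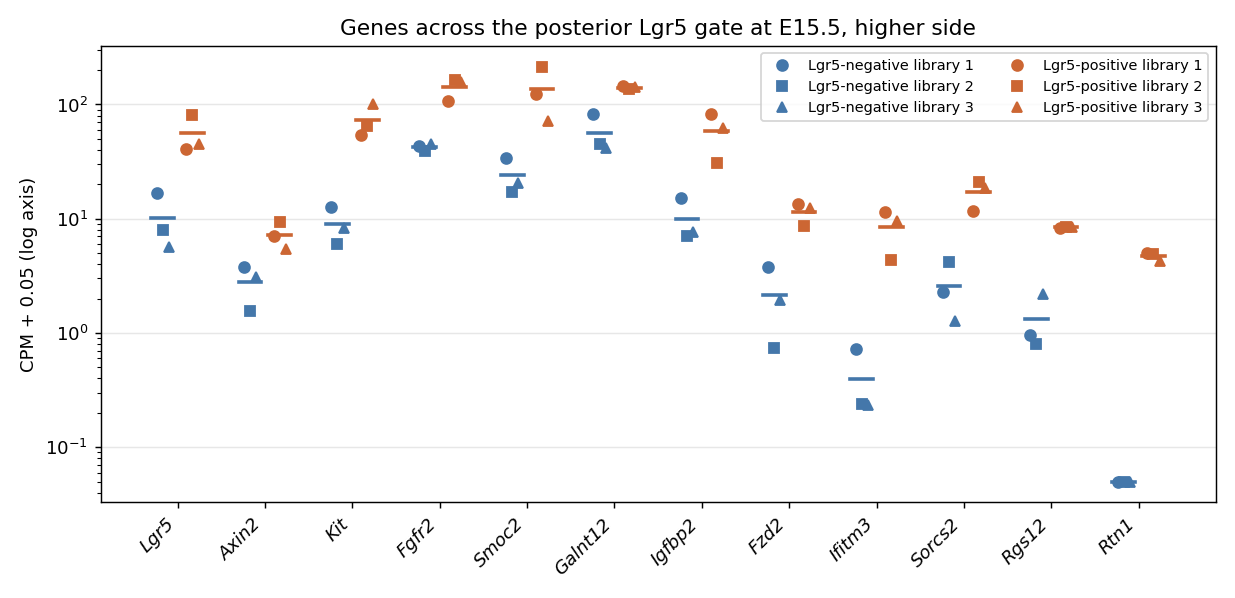
CPM plus 0.05 on a log axis for Lgr5, Axin2 and 10 genes that passed the test, in each of the 6 libraries (circles, squares and triangles for libraries 1, 2 and 3), with bars at the group means. In every gene the 3 Lgr5-positive libraries lie above the 3 Lgr5-negative ones, and Rtn1 is at 0 in all Lgr5-negative libraries; Lgr5 and Axin2 did not pass the test.

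The promoters of the higher genes were read for the core site of TCF/LEF, the factors through which beta-catenin acts. Sequences are RefSeq's, build GRCm38.p6, matched by symbol, and run over the 250 bases before a start site in the direction of the gene. The letters searched were CTTTGAT and CTTTGTT on both strands, and matches stand in capitals. Rtn1 (chr12:72235747-72235996, minus strand, 1 of 3 start sites) and Kit (chr5:75574737-75574986, plus strand) are shown because they led the genes high in all 3 libraries. Hbb-y (chr7:103853208-103853457, minus strand) is shown as a gene of libraries 1 and 3.
Rtn1: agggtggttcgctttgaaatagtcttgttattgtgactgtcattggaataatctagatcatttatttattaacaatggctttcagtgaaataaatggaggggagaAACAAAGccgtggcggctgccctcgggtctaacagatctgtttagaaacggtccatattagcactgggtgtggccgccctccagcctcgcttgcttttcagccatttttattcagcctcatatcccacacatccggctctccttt
Kit: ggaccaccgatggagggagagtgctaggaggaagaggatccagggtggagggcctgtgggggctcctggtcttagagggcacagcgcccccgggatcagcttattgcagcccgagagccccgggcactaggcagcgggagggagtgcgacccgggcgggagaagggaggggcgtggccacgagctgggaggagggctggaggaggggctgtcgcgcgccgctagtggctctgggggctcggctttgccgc
Hbb-y: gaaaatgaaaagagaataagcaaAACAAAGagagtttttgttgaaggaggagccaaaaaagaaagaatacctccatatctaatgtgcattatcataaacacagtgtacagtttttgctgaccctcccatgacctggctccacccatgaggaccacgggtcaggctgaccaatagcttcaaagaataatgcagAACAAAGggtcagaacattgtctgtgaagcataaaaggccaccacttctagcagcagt
Of 43 windows of the 31 higher genes found in the table, 4 held a match, or 9.30%, against 8.06% of all 32851 windows of this length. None of 8 windows of the lower genes held one. Of the 3 Rtn1 windows 1 held these letters, the one printed, and neither of the 2 Kit windows did. The Hbb-y window held them at 2 places.

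Other genes that passed the test were high mainly in Lgr5-positive libraries 1 and 3. Of the 51 higher genes, 28 were under 2 times the highest Lgr5-negative library in Lgr5-positive library 2, and 12 of the 51 overlapped. The 28 include Galnt12 and Emb, given above among genes high in all 3 libraries, and not Slc2a3 or Cald1. That count thus does not mark the genes of libraries 1 and 3. Crabp2, which delivers retinoic acid to its nuclear receptor, had 0.182, 0.311 and 0.184 CPM in the Lgr5-negative libraries and 151, 0.558 and 156 CPM in the Lgr5-positive ones (8.79 ± 1.42, adjusted p by edgeR 0.00106). Crabp1, its relative that binds the same ligand, had 0.0606, 0.249 and 0 CPM against 80.4, 0.101 and 76.8 CPM (8.92 ± 2.13, adjusted p by edgeR 0.0488). With library 2 alone their log2 fold changes were 1.28 and -0.02. Slc2a3, a high-affinity glucose transporter of early embryos, had at most 0.184 CPM against 48.3, 0.609 and 72.5 CPM (9.23 ± 1.94, adjusted p by edgeR 0.0209).

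Ifitm1, a relative of Ifitm3, had 0.909, 0.125 and 0 CPM against 40.5, 1.01 and 36.4 CPM (6.21 ± 0.99, adjusted p by edgeR 0.00106). Tmem88, a membrane protein that binds Dishevelled, rose from 0.788, 1.37 and 0.491 CPM to 28.9, 1.47 and 29.8 CPM (4.50 ± 0.79, adjusted p by edgeR 0.00405). Library 2 was just above the Lgr5-negative range in both genes. Cald1, an actin-binding protein of contractile cells, was at 31.2, 2.03 and 29.2 CPM against 0.623 to 0.798 CPM, and Jam3, a junctional adhesion molecule, at 12.7, 1.52 and 15.0 CPM against 0 to 0.798 CPM. Rcn3, a calcium-binding protein of the endoplasmic reticulum, was at 27.3, 4.62 and 32.8 CPM against 1.66 to 3.36 CPM. Libraries 1 and 3 were more than 5-fold above library 2 in each of these genes. Among the 6 fits that left out 1 library, 1 each called Cald1, Jam3, Rcn3 and Crabp1, and 2 called Slc2a3. Tmem88 was called in 5, and Crabp2 and Ifitm1 in all 6. With library 2 alone the log2 fold changes were 3.19 for Slc2a3, 1.54 for Ifitm1, 0.73 for Tmem88, 1.45 for Cald1, 2.11 for Jam3 and 0.88 for Rcn3, and none passed.

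Sparc, a matrix glycoprotein and the 1 called gene of 23 tested on the mesenchyme and muscle list, had 11.9, 5.10 and 4.24 CPM against 74.6, 15.0 and 70.3 CPM (2.91 ± 0.57, adjusted p by edgeR 0.00955). Uchl1, a ubiquitin hydrolase of neurons and the 1 called gene of 18 on the enteric neuron and glia list, was at 7.79, 0.203 and 7.02 CPM against 0.0623 to 0.485 CPM. Sparc was called in 2 and Uchl1 in 1 of the 6 fits that left out 1 library. The mesenchyme list had a median log2 fold change of 2.52 in the full fit and 0.18 with library 2 alone, and the neuron and glia list 2.08 and 0.12. With genes that had no read in a group set at the bound that 3 counts allow, those medians were 2.52 and 0.60, and 1.60 and 0.17. The 3 embryonic globins were the called genes of the 10 tested on the erythroid list.

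Hox genes were mostly highest in the same pair of libraries. The 22 members of Hox 1 to 8 in the files summed to 11, 6 and 7 CPM in the Lgr5-negative libraries and to 98, 27 and 96 CPM in the Lgr5-positive ones. None of the 21 tested passed, and the median log2 fold change was 3.67, or 3.39 with genes at 0 in a group set at their bound. Hoxb2, expressed in the hindbrain and gut mesoderm of the embryo, had 1.45, 0.809 and 1.35 CPM against 18.8, 2.74 and 16.2 CPM (3.37 ± 1.01, adjusted p by edgeR 0.140). Hoxa5, a Hox gene of trunk mesoderm, had no read in the Lgr5-negative libraries or in Lgr5-positive library 2, and 6.15 and 5.24 CPM in libraries 1 and 3. The E15.5 fit called 6 of 18 tested genes higher and 0 lower, beside 6.3% and 7.94% of all genes. Among them Hoxb7, chosen after its values were seen, was as high in library 2 as in the others, with 5.40, 2.12 and 1.29 CPM against 14.8, 14.8 and 13.4 CPM (2.25 ± 0.47, adjusted p by edgeR in the E15.5 fit 0.00759).

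The 10 lower genes had small and even differences. Hsd17b2, which inactivates oestradiol and testosterone, fell from 54.2, 34.8 and 34.9 CPM in the Lgr5-negative libraries to 14.5, 11.6 and 9.53 CPM in the Lgr5-positive ones (-1.80 ± 0.41, adjusted p by edgeR 0.0306). Pla2g12b, a secreted phospholipase-like protein needed to lipidate lipoproteins, fell from 77.5, 56.3 and 56.4 CPM to 29.7, 23.7 and 18.7 CPM (-1.40 ± 0.26, adjusted p by edgeR 0.00771). Gstm3, a glutathione transferase, fell from 88.4, 60.0 and 53.8 CPM to 28.7, 30.2 and 22.9 CPM (-1.31 ± 0.32, adjusted p by edgeR 0.0497). The lowest Lgr5-negative library stayed above the highest Lgr5-positive one in each. Of the 6 fits that left out 1 library, none called Hsd17b2 or Gstm3, and 4 called Pla2g12b.

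Sat1, which acetylates polyamines for breakdown, fell from 117, 101 and 105 CPM to 55.6, 36.9 and 45.4 CPM. Tubal3, an alpha-tubulin-like protein, fell from 90.9, 91.0 and 91.5 CPM to 46.3, 35.8 and 36.4 CPM, with hardly any spread among the Lgr5-negative libraries. Rgn, a calcium-binding lactonase, fell from 97.1, 117 and 103 CPM to 48.4, 54.8 and 36.9 CPM. Their log2 fold changes were -1.23 ± 0.27, -1.21 ± 0.28 and -1.18 ± 0.26, with adjusted p by edgeR of 0.0278, 0.0325 and 0.0237. Sc5d, an enzyme late in cholesterol synthesis, fell from 174, 252 and 267 CPM to 117, 99.4 and 125 CPM (-1.02 ± 0.24, adjusted p by edgeR 0.0420). Ugdh, which makes UDP-glucuronate, Gcat, which breaks down threonine products, and Mtch2, an insertase of the outer mitochondrial membrane, fell by 0.80, 0.67 and 0.64 on the log2 scale. Tubal3, Ugdh, Gcat and Mtch2 were called in none of the 6 fits that left out 1 library, and Sat1, Rgn and Sc5d in 1 each. With library 2 alone the 10 fold changes ran from -1.84 for Hsd17b2 to -0.61 for Gcat, and none passed.

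**Figure D3:**
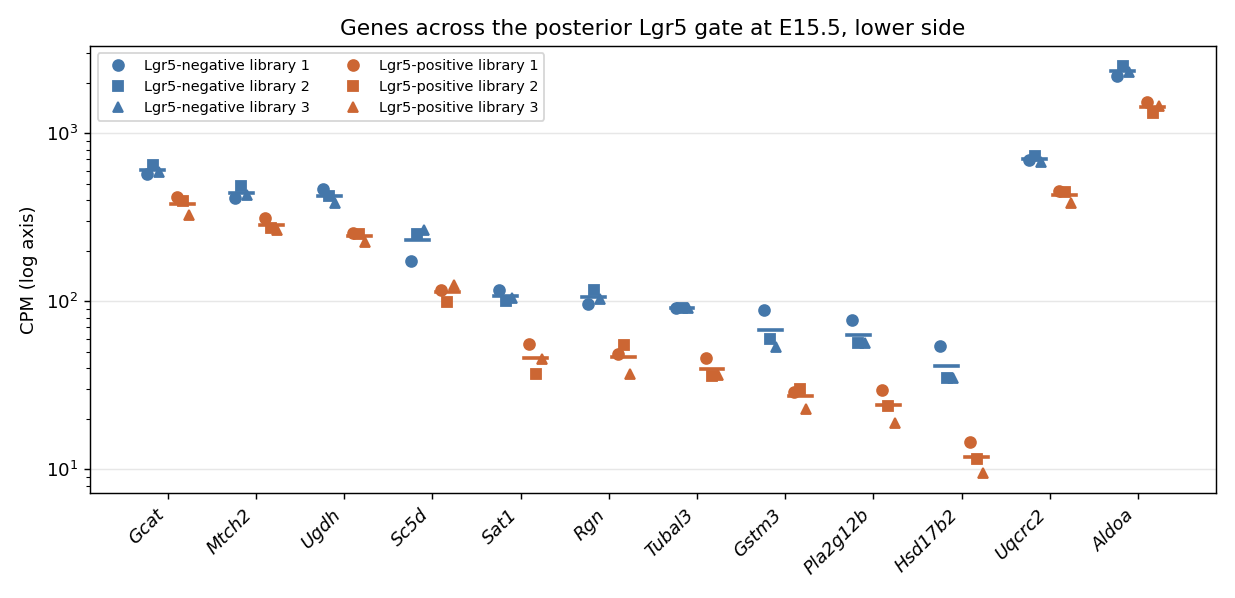
CPM on a log axis for the 10 genes that fell and for Uqcrc2 and Aldoa, which did not pass in the full fit, in each of the 6 libraries (circles, squares and triangles for libraries 1, 2 and 3), with bars at the group means. All 3 Lgr5-positive libraries lie below all 3 Lgr5-negative ones in each gene, as for Tubal3 with 35.8 to 46.3 against 90.9 to 91.5 CPM.

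Gene lists were described by counts and medians, since they were chosen with results of these data known. In the full fit 17 distinct genes of the lists passed. The stem cell list, 27 genes tested, had 1 called gene, Smoc2, and a median log2 fold change of 0.66, or 0.94 with library 2 alone. In the E15.5 fit 6 of its 27 genes were higher and 2 lower, beside 6.3% and 7.94% of all genes. The lower ones were thus near that share. Lgr5, the gene used for the gate, is among the 6. The higher ones included Slc12a2, a chloride transporter of crypt base cells, with 82.9, 62.2 and 85.0 CPM against 126, 212 and 251 CPM (1.31 ± 0.24, adjusted p by edgeR in the E15.5 fit 0.00599). Igfbp4, also higher, had 170, 226 and 235 CPM against 270, 404 and 321 CPM. These genes and those named below from the E15.5 fit were chosen after their values were seen.

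Wnt targets had a median of 1.46, or 0.99 with library 2 alone, and 23 of 24 tested had a positive fold change, beside 57.0% of all genes tested. Zbtb7c, a zinc finger factor, was the 1 called gene, and no fit with 1 library left out called it. It was at 0 reads in the Lgr5-negative libraries and at 0.795, 1.98 and 1.36 CPM in the Lgr5-positive ones. By the floor of 3 counts per library that is at least 7.48-fold higher. The E15.5 fit called 8 of the 24 higher, beside 6.3% of all genes. Lgr5, the gene used for the gate, is among these 8 and among the 23 above. Rnf43, the feedback inhibitor that removes Frizzled, was also called there and is on the stem cell list too. It had 19.9, 20.9 and 28.8 CPM against 32.4, 45.2 and 92.8 CPM. Nkd1, another feedback inhibitor, had 2.91, 3.92 and 3.56 CPM against 16.9, 7.46 and 14.2 CPM. Lef1 was called there too, but had no read in library 2 and 13.6 and 13.1 CPM in libraries 1 and 3. Of 40 genes on the list of Wnt ligands, receptors and modulators, Fzd2 alone passed in the full fit.

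Secretory genes were on the higher side. The goblet and Paneth list had a median of 1.73 over 28 genes, or 1.65 with library 2 alone. Galnt12 was called in the full fit, and 13 genes were higher and 0 lower in the E15.5 fit. The shares of all genes in that fit were 6.3% and 7.94%. Atoh1, the factor that sets the secretory fate, had 30.3, 10.1 and 12.9 CPM against 73.3, 104 and 29.7 CPM, so Lgr5-positive library 3 overlapped with Lgr5-negative library 1 (1.93 ± 0.47, adjusted p by edgeR in the E15.5 fit 0.0156). Spdef, a factor of goblet cell maturation, had 26.9, 15.2 and 18.5 CPM against 47.5, 72.8 and 97.1 CPM, without overlap. Creb3l1, a factor of the secretory pathway, had 48.6, 28.6 and 25.0 CPM against 103, 109 and 95.2 CPM. In the full fit Atoh1 and Spdef were far from the threshold (adjusted p by edgeR 0.420 and 0.369). Lyz2, on the list as a lysozyme gene and also made by macrophages, was called in the E15.5 fit from 22.0 CPM in library 2 alone, the library in which immune markers were highest.

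The enteroendocrine list had a median of 2.45 over 36 genes in the full fit, 35 of them positive beside 57.0% of all genes, and 0.82 with library 2 alone. Set at the bound for genes at 0 in a group, these medians were 2.38 and 1.06. Cpe, which trims peptide hormones, was called (20.1, 18.7 and 17.2 CPM against 79.6, 24.4 and 140 CPM, 2.12 ± 0.47, adjusted p by edgeR 0.0264). Its log2 fold change was 0.39 with library 2 alone, and 1 of the 6 fits that left out 1 library called it. In the E15.5 fit 10 of 35 genes were higher and 0 lower, beside 6.3% and 7.94% of all genes. Pyy, a hormone of distal L cells, had 2.00, 0.311 and 0.676 CPM against 38.7, 14.5 and 36.7 CPM. Neurod1, a factor of endocrine differentiation, had 4.97, 12.6 and 14.1 CPM against 50.1, 12.8 and 96.1 CPM, so that library 2 lay within the Lgr5-negative range while libraries 1 and 3 were above it. The summed level of the list was 448, 333 and 340 CPM against 1644, 831 and 2427 CPM.

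Notch genes had a median of 1.38 over 28 genes, or 0.72 with library 2 alone, and none passed in the full fit. The smallest p-values there were those of Dtx4, a regulator of Notch, and Notch1 (1.26 ± 0.46 and 1.17 ± 0.45, adjusted p by edgeR 0.202 and 0.221). The E15.5 fit called 8 of 25 higher and 0 lower, beside 6.3% and 7.94% of all genes. Dll1, a ligand that secretory precursors present to their neighbours, had 19.2, 10.1 and 11.1 CPM against 52.2, 49.1 and 67.8 CPM (2.03 ± 0.31, adjusted p by edgeR in the E15.5 fit 0.00354). Dll4, the other main ligand in the gut, had 6.91, 5.79 and 5.28 CPM against 15.2, 17.5 and 38.0 CPM. Lfng, a glycosyltransferase that alters the answer of Notch to its ligands, had 7.27, 5.67 and 3.75 CPM against 17.4, 28.5 and 15.9 CPM. For these 3 genes all Lgr5-positive libraries, including library 2, were above all Lgr5-negative ones.

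Genes of absorption had fold changes in both directions. The enterocyte list had a median of 0.01 over 41 genes and -0.44 with library 2 alone, with 0 genes called in the full fit by edgeR. The E15.5 fit called 4 of 41 higher and 8 lower, beside 6.3% and 7.94% of all genes. Fabp2, the fatty acid binding protein of enterocytes, had 230, 210 and 219 CPM against 86.5, 72.7 and 74.0 CPM (-1.54 ± 0.23, adjusted p by edgeR in the E15.5 fit 0.00354). Alpi, the intestinal alkaline phosphatase, had 66.2, 42.6 and 45.5 CPM against 13.9, 10.05 and 9.22 CPM. Mttp, which loads lipid onto apolipoprotein B, did not pass in the full fit (-1.24 ± 0.37, adjusted p by edgeR 0.140). Hnf4a, a factor that drives enterocyte genes, was on the other side, with 145, 112 and 129 CPM against 162, 201 and 451 CPM.

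Genes of energy and sterol metabolism were lower by small amounts. Of 23 oxidative phosphorylation genes, 22 had a negative fold change, while 57.0% of all genes tested had a positive one. The median was -0.48, or -0.52 with library 2 alone, where none was positive. None passed in the full fit, where Uqcrc2 and Sdhc came nearest (-0.71 ± 0.20 and -0.69 ± 0.19, adjusted p by edgeR 0.119 for both), and 17 of 23 were called lower in the E15.5 fit, beside 7.94% of all genes. Uqcrc2, a core protein of complex III, had 695, 732 and 672 CPM against 456, 447 and 383 CPM. Atp5b, the catalytic subunit of ATP synthase, had 5251, 5614 and 5474 CPM against 3950.19, 3935 and 3385 CPM. In 18 of the 23 genes the groups did not overlap, beside 14.1% of all genes tested.

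Glycolysis genes had a median of -0.34 over 18 genes, or -0.37 with library 2 alone. In the E15.5 fit 8 were called lower, beside 7.94% of all genes. Aldoa, a glycolytic aldolase, had 2207, 2512 and 2330.03 CPM against 1536, 1323 and 1449.9 CPM, and Pgk1, phosphoglycerate kinase, had 62.1, 70.2 and 64.3 CPM against 46.6, 39.4 and 43.8 CPM. Neither passed in the full fit (adjusted p by edgeR 0.119 and 0.179). On the cholesterol synthesis list Sc5d was called of 25 tested, with a median of -0.41, or -0.58 with library 2 alone. The E15.5 fit called 12 of them lower and 1 higher, beside 7.94% and 6.3% of all genes. Nsdhl, a sterol dehydrogenase, had 197, 233 and 211 CPM against 141, 120 and 104 CPM. The 1 higher gene was Srebf2, the factor that switches on this pathway, at 88.2, 68.0 and 82.2 CPM against 108, 121 and 222 CPM. Of the 9 epithelial markers summed above, Krt19, Cldn7 and Epcam were each lower in the same 3 libraries. Not all of the others are given singly here.

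Dividing cells were traced with 2 lists. Mitosis genes had a median of 0.63 over 29 genes, or 0.86 with library 2 alone. In both fits 27 of 29 were positive, beside 57.0% and 48.0% of all genes tested. None passed in the full fit. Mki67, a marker of cycling cells, had 116, 58.2 and 95.1 CPM against 186, 265 and 126 CPM, without overlap (1.10 ± 0.33, adjusted p by edgeR 0.141), and Kif11, a spindle motor, had 120, 45.01 and 44.2 CPM against 197, 251 and 110 CPM. The list summed to 4922, 3099 and 3104 CPM against 6467, 6423 and 3388 CPM, so libraries with Y-linked reads were lowest in each group, and Lgr5-positive library 3 was below Lgr5-negative library 1. DNA replication genes had a median of 0.08, and Pole and Chaf1a, of leading-strand synthesis and chromatin assembly, had the smallest p-values there (adjusted p by edgeR 0.208 and 0.214).

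Remaining signalling and matrix lists held few calls in the full fit and more in the E15.5 fit. On the receptor tyrosine kinase list, Kit and Fgfr2 were called of 37, and the median of 1.18 was 0.28 with library 2 alone. The E15.5 fit called 7 of 33 higher and 2 lower, beside 6.3% and 7.94% of all genes. The same shares stand beside the counts of that fit below. The retinoic acid list had Crabp1 and Crabp2 of 23, and the interferon list had Ifitm1 and Ifitm3 of 27. No gene passed of 32 on the list of basement membrane and integrins, 28 of which were positive beside 57.0% of all genes, while the E15.5 fit called 6 of 29 higher. Its smallest p-values were those of Col4a2, a collagen IV chain (1.27, 0.685 and 1.04 CPM against 5.35, 5.28 and 9.53 CPM, adjusted p by edgeR 0.0904), and Itga9, an integrin. None passed in the full fit among 14 Hedgehog genes, of which the E15.5 fit called 3 of 12 higher, and Gas1, a co-receptor, and Ptch1, the receptor, came nearest (2.81 ± 0.77 and 2.36 ± 0.68, adjusted p by edgeR 0.104 and 0.122). Ephb4 and Ephb2, receptors of ephrins, led 19 Eph genes without passing in the full fit and were called in the E15.5 fit (full fit 1.25 ± 0.39 and 1.00 ± 0.34, adjusted p by edgeR 0.147 and 0.176). Of 32 claudin and junction genes none passed in the full fit, and the E15.5 fit called 1 of 31 higher and 6 lower, with Cldn7 and Epcam among the lower. In the full fit Cldn7 and Epcam came nearest (-0.45 ± 0.17 and -0.47 ± 0.18, adjusted p by edgeR 0.208 and 0.229).

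**Figure D4:**
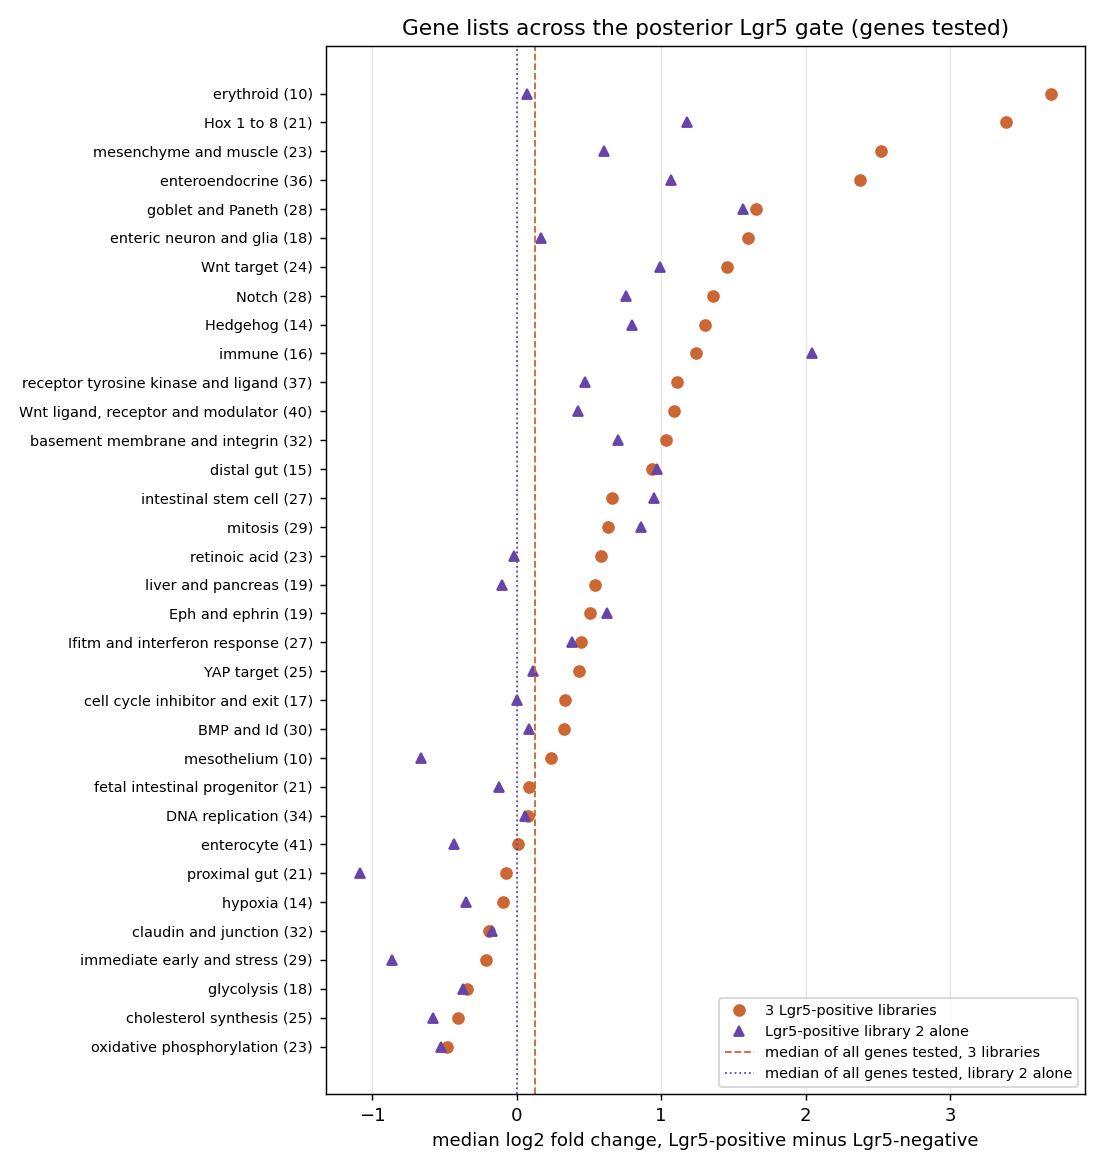
Median log2 fold change across the posterior Lgr5 gate of each gene list with at least 8 genes to summarise, with genes at 0 in a group set at the bound of 3 counts per library (circles for the 3 Lgr5-positive libraries, triangles for library 2 alone; the number of genes tested in brackets; lines at the medians of all genes, 0.12 and 0). Erythroid, mesenchyme and Hox medians fall toward the line with library 2 alone, while the goblet and Paneth list is at 1.65 and 1.57 and oxidative phosphorylation at -0.48 and -0.52.

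The posterior gate was set beside the same gate in other cells. In unlabelled cells of the anterior part at E15.5 no gene passed by edgeR, with 207 genes at an unadjusted p under 0.05, while DESeq2 called 42 and limma 1. Across the labelled posterior populations, where the comparison group has no stated Lgr5 state, no gene passed by edgeR either, with 305 at an unadjusted p under 0.05, while DESeq2 called 67 and limma 34. At E13.5 in the same line 68 genes were higher and 67 lower, 0.87% of genes tested. Of the 51 genes higher in the posterior gate, 43 had a positive fold change in the anterior gate (50.5% of all genes did), 48 in the labelled gate (49.1%) and 28 at E13.5 (48%). All 10 lower genes were negative in the anterior and labelled gates (48.5% and 49.6% of all genes) and 8 at E13.5 (50.7%). The median log2 fold change of the 51 was 2.75 in the posterior gate, 0.54 in the anterior, 0.55 in the labelled and 0.22 at E13.5, and the first of these rests on the choice of the genes.

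The test of the difference itself called 1 gene between the posterior and the anterior gate (0.00645% of genes tested). Rtn1 was at 0.272 to 1.44 CPM in the Lgr5-negative and at 1.21 to 2.13 CPM in the Lgr5-positive anterior libraries, so the anterior gate moved it by 0.75 ± 0.71. The posterior change exceeded that by 8.91 ± 1.52 (adjusted p by edgeR 0.0191), a fitted value that rests on the 0 reads of the posterior Lgr5-negative libraries and is no bound. The E15.5 fit did not call it, nor did the fits without posterior Lgr5-negative library 1, 2 or 3, anterior Lgr5-negative library 2 or 3, or anterior Lgr5-positive library 1 or 2. Lgr5 itself changed by 2.45 in both parts, with a difference of 0.00 ± 1.10. For Kit the anterior change was 0.38 ± 0.45 and the difference 2.66 ± 0.65, which did not pass (adjusted p by edgeR 0.457).

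Between the posterior gate and the gate at E13.5 the difference passed for 40 genes (0.258%), 26 more positive and 14 more negative in the posterior part. Each E13.5 replicate pooled 3 embryos and held the whole small intestine, while each posterior replicate came from 1 embryo. Stage, part of the gut and pooling thus cannot be told apart in this difference. Deviations of same-numbered libraries correlated at 0.53, 0.73 and 0.24 at E13.5 and at 0.21, -0.15 and 0.40 in the posterior part. A fit with the replicate number as a block called 91. Leaving out posterior Lgr5-negative library 1, 2 or 3 gave 22, 7 and 10 genes, posterior Lgr5-positive library 1, 2 or 3 gave 11, 57 and 8, E13.5 Lgr5-negative library 1, 2 or 3 gave 24, 29 and 14, and E13.5 Lgr5-positive library 1, 2 or 3 gave 7, 16 and 12. With library 2 as the single posterior Lgr5-positive library edgeR called 0, with 516 genes at an unadjusted p under 0.05; DESeq2 and limma were not run on that set. Vav3, a guanine nucleotide exchange factor, rose at E13.5 by 4.49 ± 0.43 and changed by 1.15 ± 0.38 in the posterior gate, a difference of -3.35 ± 0.55 (adjusted p by edgeR 0.00221). Smoc2 rose at E13.5 from 1.55 to 4.36 CPM in Lgr5-negative libraries to 156 to 249 CPM in Lgr5-positive ones, a change of 6.17 ± 0.71, and its difference was -3.67 ± 0.84 (adjusted p by edgeR 0.0448). The posterior Lgr5-negative libraries, at 17.2 to 34.3 CPM, were above the E13.5 ones for Smoc2. Gramd3 changed by 1.61 ± 0.21 at E13.5 and by -0.17 ± 0.20 in the posterior gate. In the Id2 line at E13.5 the same gate gave smaller changes of 2.08 ± 0.58 for Smoc2, 1.93 ± 0.39 for Vav3 and 0.89 ± 0.21 for Gramd3, and -4.65 ± 0.76 for Sfrp5. The posterior gate was not tested against that line, where the change of Smoc2 was below the posterior one of 2.50.

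Sfrp5, a secreted Wnt antagonist of the early gut, had 253 to 651 CPM in Lgr5-negative and 0.458 to 1.12 CPM in Lgr5-positive libraries at E13.5, a log2 change of -9.13, and was near 0 in all 6 posterior libraries, at 0.0530 to 1.204 CPM. The difference for Sfrp5 was 9.06 ± 1.48. Ramp2, a co-receptor of adrenomedullin, had a difference of 5.91 ± 0.94, and in the posterior gate was high in libraries 1 and 3 alone, at 10.4, 0.660 and 10.1 CPM. Igfbp2 rose in the posterior gate and had -1.37 ± 0.46 at E13.5, a difference of 3.93 ± 0.67 (adjusted p by edgeR 0.00312). Aplp1, a relative of the amyloid precursor protein, had 9.34, 10.96 and 7.12 CPM against 42.4, 18.98 and 84.1 CPM in the posterior gate and a difference of 4.17 ± 0.73. Pamr1, a secreted protein of muscle, had a difference of 4.07 ± 0.71, and Basp1, a membrane protein of growing axons, one of 5.93 ± 1.12 with 33.8, 1.07 and 43.8 CPM in the Lgr5-positive libraries. Kit and Fgfr2 had differences of 2.54 ± 0.64 and 1.85 ± 0.49 that did not pass (adjusted p by edgeR 0.0877 and 0.113).

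**Figure D5:**
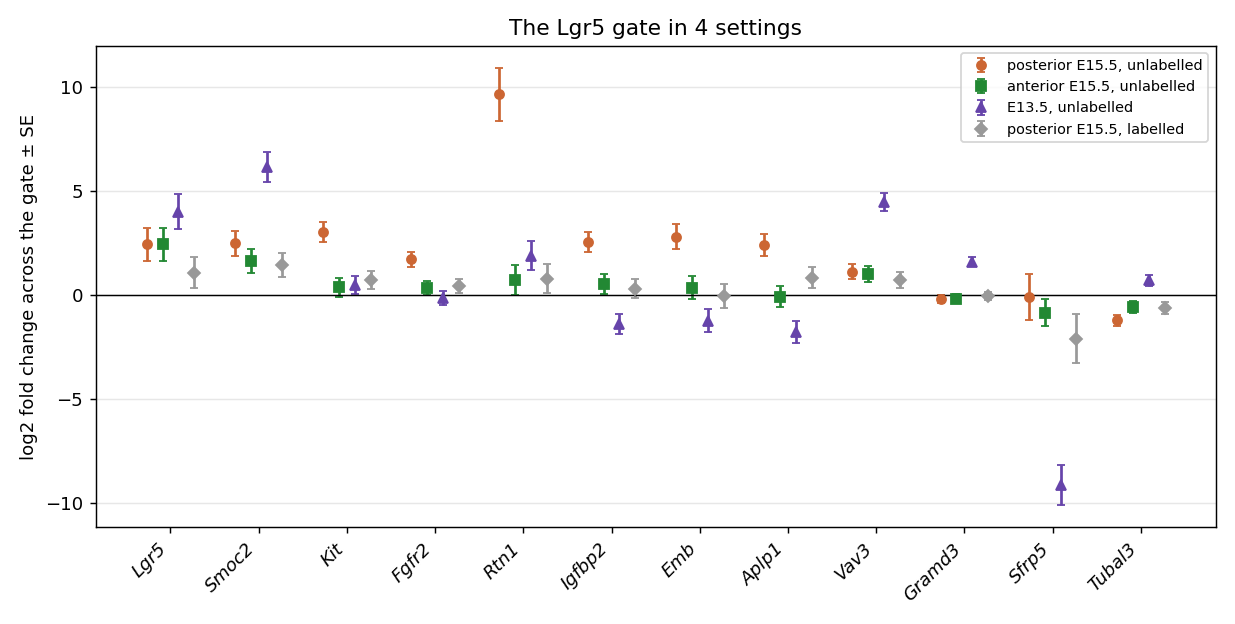
Log2 fold change across the Lgr5 gate with its standard error for 12 genes in unlabelled posterior and anterior cells at E15.5, in unlabelled cells at E13.5 and in labelled posterior cells at E15.5 (3 libraries a group). Kit lies at 3.04 in the unlabelled posterior gate and at 0.38, 0.50 and 0.74 in the others, and Smoc2 at 2.50, 1.66, 6.17 and 1.45.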

How the data were processed

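The authors deposited raw read counts per gene for each library, one table each. Per the submitters' processing notes, bcl2fastq 1.8.4, STAR 2.3.1z13, SAMtools 1.2, HTSeq 0.6.1p1 and DESeq2 1.14.1 were used with build mm9. The labels and headers name neither annotation nor strand setting, so antisense and overlapping genes are uncertain. So are genes with near-identical copies, such as the adult globins, and close relatives such as the Ifitm genes. Per the labels' protocols, polyadenylated RNA was amplified for 15 cycles (SMARTer) without molecular identifiers, so counting error is only part of the error. The 5 closing rows that name no gene (25.5 to 29.0% of reads in the 6 libraries) were left out. No 2 libraries of a group were copies.

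Counts were tested with edgeR 4.0.16 (R 4.3.3; quasi-likelihood, robust, TMM), all 45 libraries, 15 group means, 30 residual degrees of freedom; filterByExpr (minimum count 10, total 15) kept 15513 of 23366 genes; Benjamini-Hochberg, threshold 0.05. Alternatives used DESeq2 1.42.0, limma 3.58.1 (voom, quality weights), other library sets and a replicate block. Deviations of same-numbered E13.5 libraries of the Axin2 line correlated at 0.53, 0.73 and 0.24. Lgr5-positive library 3 there correlated better with Lgr5-negative library 1, at 0.31, so pairing by number is not sure. Anterior same-numbered libraries correlated at -0.014, 0.55 and 0.40. The script was tested on simulated data. Members and lists were chosen with earlier results of these data known. Genes were named by rule: sort genes; called genes with at least 5 CPM and no overlap, up to 15 a direction by fold; up to 4 called genes a list, or the 2 with smallest p; up to 8 per difference. Others are said to be chosen after their values were seen. One gene that this rule names is not reported here.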

Additional observations from a re-analysis of the deposited data

Results flagged for a closer look

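The effect of the Lgr5 gate differed between settings, by the test of the difference, for the following genes, given as log2 differences. Rtn1 differed from both settings, at 8.91 for posterior minus anterior and at 7.76 for posterior minus E13.5. More positive in the posterior gate than at E13.5 were Slc2a3 (10.97), Sfrp5 (9.06), Crabp2 (8.25), Hoxb2 (6.67), Uchl1 (6.04), Basp1 (5.93), Ramp2 (5.91), Ifitm1 (5.28), Aplp1 (4.17), Pamr1 (4.07), Emb (4.03), Rcn3 (4.0), Igfbp2 (3.93) and Sparc (3.44). More negative were Smoc2 (-3.67), Vav3 (-3.35), Tubal3 (-1.93) and Gramd3 (-1.79). In the differences from E13.5, stage, part of the gut and pooling of embryos cannot be told apart. For Slc2a3, Crabp2, Uchl1, Basp1, Ramp2, Ifitm1, Hoxb2, Rcn3 and Sparc the posterior side is high mainly in Lgr5-positive libraries 1 and 3, and their part in the result was not tested. With library 2 as the single posterior Lgr5-positive library, no difference from E13.5 or from the anterior part passed.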

How the results depend on the processing

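The 61 genes called in the posterior gate became 385 with DESeq2, 1551 with limma (voom), 776 with the Axin2 line alone, 2021 with the E15.5 libraries alone and 576 with the 6 libraries compared. The share of higher genes was 83.6% in the fit of all libraries, 70.9% with DESeq2, 57.7% with limma, 41.1% with the Axin2 line, 44.2% with the E15.5 libraries and 47.9% with the 6 libraries. Leaving out 1 library gave 7 to 49 genes, and, within the E15.5 libraries, 1395, 326 and 1136 without Lgr5-negative library 1, 2 or 3 and 2395, 1360 and 260 without Lgr5-positive library 1, 2 or 3. Settings added after seeing the data gave 2892 (E15.5 libraries with Y-linked reads as a term), 14 (E15.5 libraries without Lgr5-positive libraries 1 and 3), 3 (without these 2) and 1 (also without Lgr5-negative library 2). Of 41 named genes that passed, 41 kept their call with DESeq2, with the E15.5 libraries and with the Axin2 line, 36 with limma and 1 without Lgr5-positive libraries 1 and 3.

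The 1 gene of the difference from the anterior part became 63 with DESeq2, 45 with limma, 0 with the E15.5 libraries and 0 without Lgr5-positive libraries 1 and 3 (0 also without Lgr5-negative library 2), and 0 to 3 with 1 library left out; within the E15.5 libraries it was 11 without posterior Lgr5-negative library 1, 34 without Lgr5-positive library 2 and 0 without any other of the 6. The 40 genes of the difference from E13.5 became 193 with DESeq2, 1210 with limma, 19 without the filter, 131 with the Axin2 line, 124 with the libraries compared, 7 to 57 with 1 library left out, and 0 under both settings without Lgr5-positive libraries 1 and 3. The 17 called list genes became 61 with DESeq2, 182 with limma, 11 without the filter, 174 with the E15.5 libraries, 83 with the Axin2 line, 87 with the 6 libraries, 4 to 14 with 1 library left out, and 0 in both fits without libraries 1 and 3. The cause was not tested.

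Deviations of same-numbered posterior libraries from their group means correlated at 0.21, -0.15 and 0.40 over 9289 genes, and library 2 did not correlate best with its own number. Whether the numbers pair the posterior samples cannot be told from these values. The replicate block gave 384 genes in the gate (49.5% higher), 0 and 91 in the differences from the anterior part and E13.5, and 65 list genes; within the 6 libraries it gave 789 and 119.

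Reversed without Lgr5-positive libraries 1 and 3 were Basp1 (-0.25), Cdx4 (-3.55), Crabp1 (-0.0206), Gramd3 (0.18), Hba-x (-0.16), Hbb-bh1 (-0.59), Hoxb1 (-3.56), Tcf15 (-2.65) and Uchl1 (-0.26), and Hoxa5 went to 0. Also without Lgr5-negative library 2, Basp1 was at -0.42, Cdx4 -4.09, Gramd3 0.18, Hbb-bh1 -0.54, Id2 0.034, Tcf15 -2.60 and Uchl1 -0.71, with Hoxa5 and Hoxb1 at 0. Sfrp5, at -0.07 with all libraries, ran from -1.95 to 0.44 with 1 library left out and was positive without Lgr5-negative library 2 (0.18), Lgr5-positive library 1 (0.44) or library 2 (0.32). Genes under a few CPM are limited by depth, with 3 counts equal to 0.184 CPM.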
